A study of Homo sapiens with 6 samples.

Results

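The nuclear pore, nuclear transport and lamina genes were examined in HCT116, a human colorectal cancer cell line, after knockdown of GDPD5. The set holds 47 genes, taken by symbol from the 79302 genes of the deposited table. It covers nucleoporins, importins and exportins, the Ran system, and the lamins with proteins of the inner nuclear membrane. All 47 had a row in the table and all 47 passed the filter on low counts.

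RNA-seq was available for 3 libraries with a control shRNA (shCtrl) and 3 with an shRNA against GDPD5 (shGDPD5). The study's text describes radioresistant HCT116, made by 25 rounds of 4 Gy, irradiated once more with 4 Gy and collected 6 h later. The sample labels name the line and the shRNA but neither the resistance nor the irradiation. Both groups would share that history, so no unirradiated or parental library was compared here. Which of the GDPD5 shRNAs was used is not given in the sources used here, nor is it stated that the cultures of a group were separate. The p-values therefore measure the spread between libraries, which may be technical.

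The nuclear pore complex is the channel through which proteins and RNA pass between nucleus and cytoplasm. A scaffold of ring-shaped subcomplexes anchors nucleoporins rich in phenylalanine-glycine (FG) repeats, which fill the channel and bind transport receptors. Importin alpha proteins carry cargo with a nuclear localization signal together with importin beta, and the GTPase Ran gives the transport its direction. The lamina is the filament meshwork of A-type and B-type lamins under the inner nuclear membrane. The study discusses passage of EGFR through the pore with importin beta 1, which is the product of KPNB1 and one of the genes described here. The study followed the location of EGFR as protein. The values here are mRNA levels, which show neither protein levels nor transport.

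The libraries held 16715447 to 18510670 estimated counts, and a member had between 365 and 12861 counts in a library. GDPD5 had 8.33, 11.6 and 9.75 CPM in shCtrl and 5.44, 5.55 and 5.19 in shGDPD5, a fall to 54.5% of the control level without overlap (edgeR adjusted p = 0.000116). Mitochondrially encoded genes took up to 9.34% of the counts in shCtrl and at least 10% in shGDPD5. The 5 epithelial markers EPCAM, KRT8, KRT18, CDH1 and CDX2 were all detected and all 5 were lower in shGDPD5, from -0.16 for KRT8 to -0.83 for CDH1 on the log2 scale, with a summed level of 2510 to 2790 CPM in shCtrl and 2080 to 2180 in shGDPD5. Of 11 markers of fibroblasts, leukocytes and endothelium, COL1A2, DCN, CD3E and CDH5 had no counts in any library and COL1A1 had 323 to 417. The other 6 had at most 13 counts in a library, and the 11 summed to 20 to 22.5 CPM in shCtrl and 21.7 to 24.6 in shGDPD5. The part of these markers' differences in the results was not tested. shCtrl replicate 1 stood apart from the other control libraries, being the highest or the lowest of the 3 controls for 45 of the 47 members, against 80.9% of all tested genes. Results that rest on it are given with and without it.

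Most members were higher after knockdown. In the quasi-likelihood test of edgeR at an adjusted p under 0.05, 33 of 47 were higher, 4 were lower and 10 did not pass. Over all 16755 tested genes, 29.7% were higher and 30.1% were lower, 59.7% in all. The median log2 fold change of the members was 0.44, against 0.01 over all tested genes. Among the 6972 tested genes whose mean CPM (counts scaled to a common library size) lay within the members' range, 36.4% were higher and 35.1% were lower. The differences were mostly small. The study's methods give 2 fold thresholds beside an unadjusted p under 0.05 from a t test. The p-values used here are those of edgeR, so the shares below are not the study's own counts. At a log2 difference of 1 or more in size, KPNA2 and LMNB1 passed, and 5.38% of all tested genes passed upwards and 6.6% downwards. At a fold over 1.5 or under 0.5, a rule added after the data were seen, 9 members passed upwards and 0 downwards, against 13.6% and 6.6% of all tested genes. The 7 further members were RANBP1, NUP85, NUP107, TMPO, AAAS, NUP188 and RCC1. At the log2 difference of 1 and with the adjusted p in place of the unadjusted one, KPNA2 and LMNB1 again passed, against 5.34% of all tested genes upwards and 6.57% downwards. The 2 groups did not overlap in CPM for 37 of the 47 members, and for 64.9% of all tested genes. Among the 6972 genes within the members' range of mean CPM, 5243 did not overlap. Without shCtrl replicate 1, 39 members were higher and the same number, 4, were lower.

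**Figure D1:**
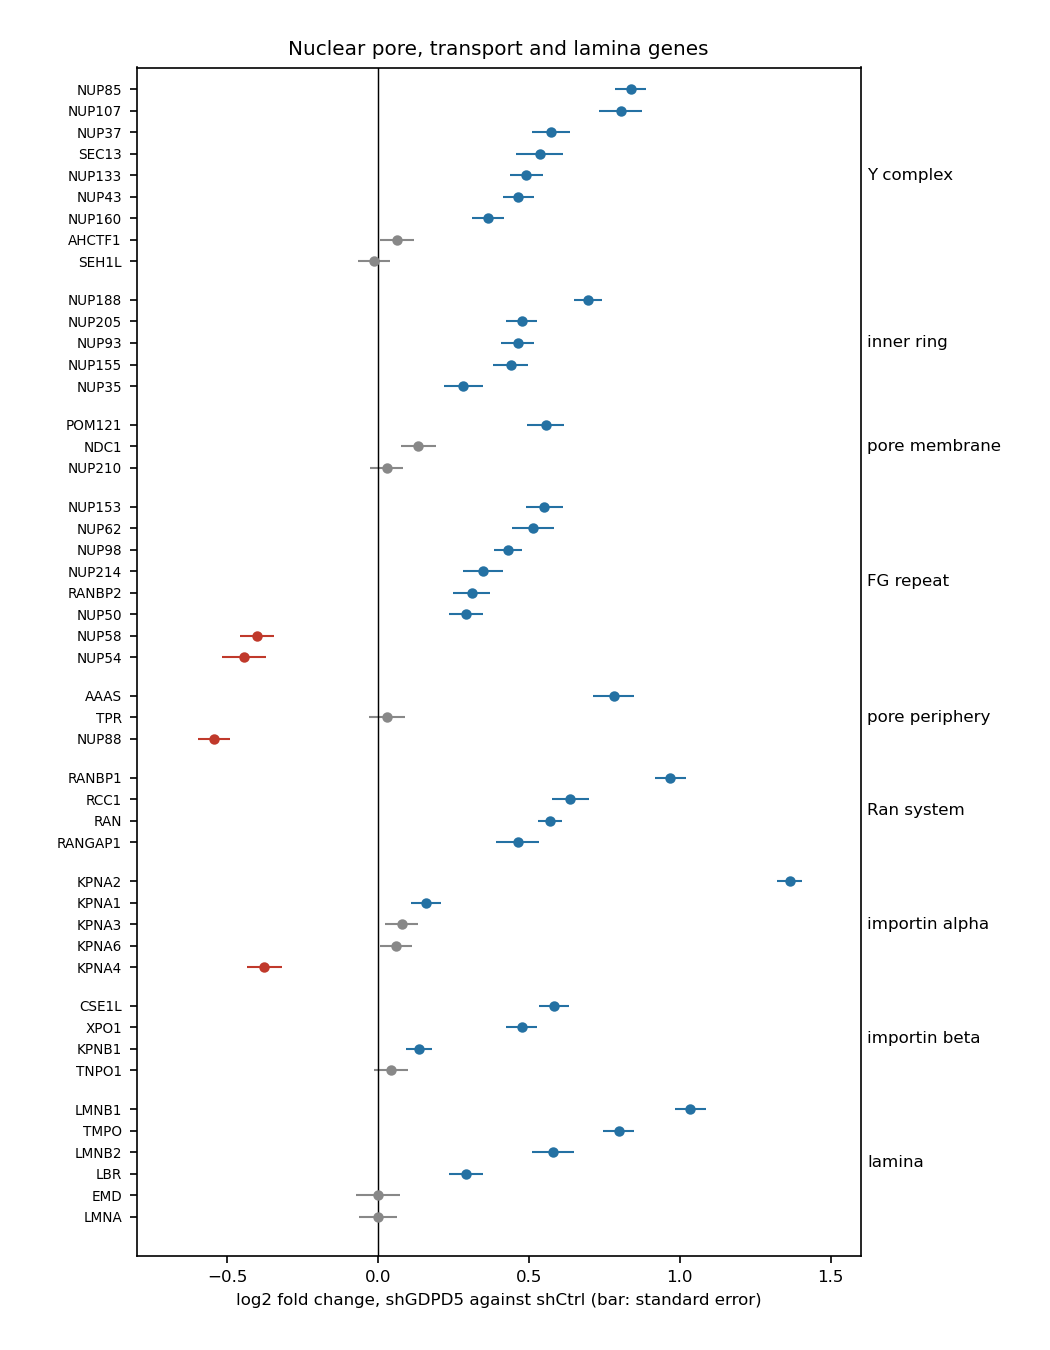
Log2 fold change of each of the 47 members, shGDPD5 against shCtrl (x axis), grouped by class (y axis). Each point is an edgeR estimate and its bar the standard error. Blue marks members called higher, red those called lower (adjusted p under 0.05), and grey the rest. KPNA2 and LMNB1 lie beyond 1, and NUP88, NUP54, NUP58 and KPNA4 lie below 0.

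The classes moved by different amounts. The 4 Ran system genes had a median log2 fold change of 0.60, the 9 Y complex genes 0.49, the 5 inner ring genes 0.46 and the 6 lamina genes 0.44. The 8 FG repeat genes had 0.33 and the 4 receptors of the importin beta family 0.31. The 3 pore membrane genes had 0.13, the 5 importin alpha genes 0.08 and the 3 genes of the pore periphery 0.03. Taken as one scaffold, the Y complex and the inner ring held 12 higher and 0 lower genes of 14, while the FG repeat class held 6 higher and 2 lower of 8. The 9 transport receptors held 5 higher and 1 lower, and the lamina class 4 higher and 0 lower of 6. Over all tested genes, 29.7% were higher and 30.1% lower, with a median log2 fold change of 0.01. Called in either direction were 85.7% of the scaffold, 100% of the FG repeat class, and 66.7% of both the transport receptors and the lamina class. That share was 59.7% over all tested genes and 71.5% over those within the members' range of mean CPM. These class medians were not tested against each other, and the classes are small.

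The cell cycle genes MKI67, PCNA and TOP2A rose by 1.45, 1.86 and 1.24 on the log2 scale in the same libraries (edgeR adjusted p = 5.69e-11, 3.62e-11 and 9.78e-10). The part of the cell cycle in the differences described here was not tested. In these bulk libraries a change in the share of cells that express a gene and a change in its RNA per cell cannot be told apart.

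**Figure D2:**
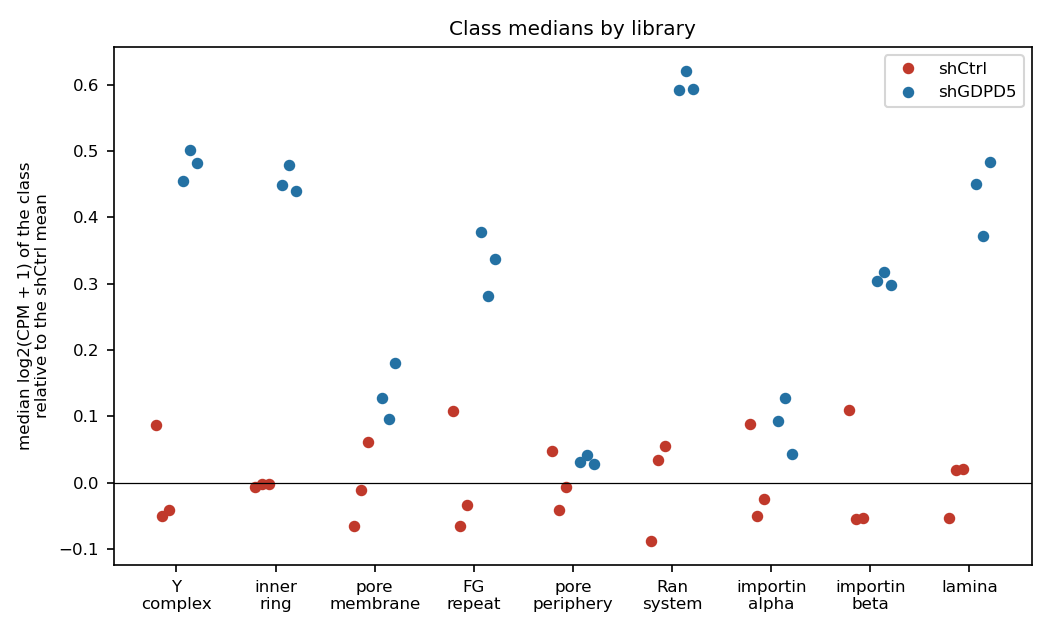
Median over the members of each class (x axis) of log2(CPM + 1) relative to the mean of the shCtrl libraries (y axis). Points are single libraries, red for shCtrl and blue for shGDPD5. The Ran system lies between 0.59 and 0.62 in the shGDPD5 libraries. The medians of the pore periphery and of the importin alpha genes overlap between the groups.

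KPNA2 encodes importin alpha 1, an adaptor that brings cargo with a nuclear localization signal to importin beta, and is known as a gene of proliferating cells. Its position is chromosome 17 from 68035519 to 68046842 on the plus strand (GENCODE release 29, GRCh38). It had 189.7, 183.0 and 186.2 CPM in shCtrl and 475.7, 487.0 and 475.4 in shGDPD5. Every shGDPD5 library was thus far above every shCtrl library, and the spread within a group was small beside the gap. The log2 fold change was 1.36 (standard error 0.04, edgeR adjusted p = 9.73e-11), a 2.57-fold higher level and the largest among the members. Of the 3 annotated pseudogenes KPNA2P1, KPNA2P2 and KPNA2P3, only KPNA2P3 had counts (19 to 34 per library), so few reads assigned to copies were seen.

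The other importin alpha genes differed far less or fell. KPNA4, importin alpha 3, had 143.4, 125.6 and 127.6 CPM in shCtrl and 98.5, 103.8 and 103.0 in shGDPD5. The groups did not overlap and the gene fell by 0.38 on the log2 scale (standard error 0.06, edgeR adjusted p = 0.000113). KPNA1, importin alpha 5, had 92.2, 85.1 and 87.4 CPM against 96.3, 101.0 and 98.4, a log2 fold change of 0.16 (edgeR adjusted p = 0.016). Its adjusted p rose to 0.0854, 0.0547, 0.0859 and 0.0613 without shCtrl replicate 2, shCtrl replicate 3, shGDPD5 replicate 2 or shGDPD5 replicate 3. The call of KPNA1 was also lost without a filter on low counts. KPNA3 and KPNA6 had log2 fold changes of 0.08 and 0.06, which did not pass (edgeR adjusted p = 0.251 and 0.356), and passed only without shCtrl replicate 1 (0.0303 and 0.00657).

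The makeup of the mRNA pool of the 5 importin alpha members is described next. KPNA5, an importin alpha gene outside the set, is not in these shares. It had a log2 fold change of -0.22 (edgeR adjusted p = 0.0219). Levels of different genes were compared as CPM per kilobase of annotated exon, which counts the exons of all annotated transcripts of a gene. On this scale KPNA2 was the most abundant of the 5 in both groups, with 59.3 CPM per kilobase in shCtrl and 153 in shGDPD5, and KPNA1 was the least abundant in shCtrl with 10.4. KPNA2 made up 46.6%, 48.4% and 48.5% of the summed level of the 5 genes in shCtrl and 70.1%, 70.1% and 70.4% in shGDPD5. KPNA4 made up 11.3% ± 0.385 in shCtrl and 4.97% ± 0.121 in shGDPD5 (SD, n = 3 libraries each). The log2 ratio of KPNA2 to KPNA4 was 1.74 higher in shGDPD5. The groups did not overlap in any of these measures. All shares and ratios between members were chosen after the values were seen and are given as descriptions, with no test.

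**Figure D3:**
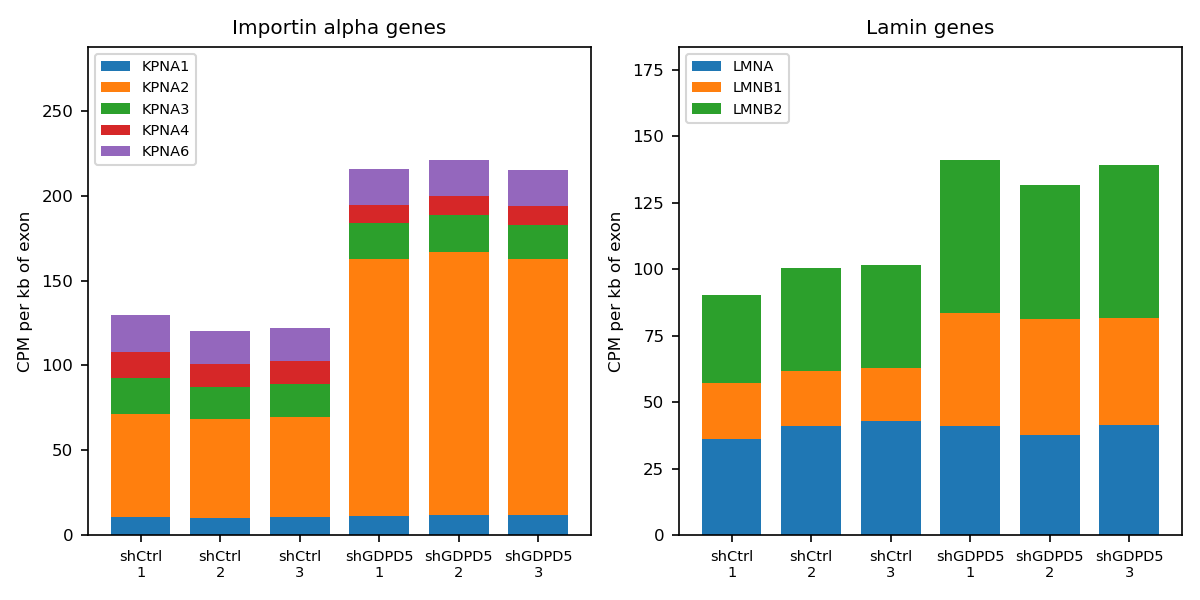
Stacked levels of the 5 importin alpha genes (left) and the 3 lamin genes (right) in CPM per kilobase of exon (y axes, starting at 0), 1 bar for each library (x axes). The KPNA2 segment grows from at most 48.5% to at least 70.1% of the importin alpha bar, while the LMNA segment keeps a similar height in both groups.

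Among the receptors of the importin beta family, CSE1L had the largest difference. It encodes the exportin that returns importin alpha to the cytoplasm, and had 214.2, 192.0 and 193.4 CPM in shCtrl against 294.2, 302.0 and 302.3 in shGDPD5. The groups were well apart, with a log2 fold change of 0.58 (standard error 0.05, edgeR adjusted p = 7.74e-07). XPO1, the main exportin for proteins with a leucine-rich export signal, had 344.3, 305.6 and 304.4 CPM against 443.2, 439.7 and 444.7, a log2 fold change of 0.48 (edgeR adjusted p = 5.95e-06). In both genes shCtrl replicate 1 was the highest control and still lay below every shGDPD5 library.

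KPNB1, importin beta 1, had 70.1 CPM per kilobase in shCtrl, the highest of the 4 genes, and 77.0 in shGDPD5, where CSE1L had 78.8. It had 554.7, 533.8 and 525.5 CPM in shCtrl and 588.2, 603.9 and 581.1 in shGDPD5. The groups did not overlap, but the difference was small, with a log2 fold change of 0.14 (standard error 0.04, edgeR adjusted p = 0.0134). This call did not hold without shCtrl replicate 2 (adjusted p = 0.0594), shCtrl replicate 3 (0.0669), shGDPD5 replicate 1 (0.0535) or shGDPD5 replicate 2 (0.0762), nor without a filter on low counts (0.0594). TNPO1, transportin 1, had a log2 fold change of 0.04 that did not pass (edgeR adjusted p = 0.537), while without shCtrl replicate 1 it was 0.11 (adjusted p = 0.00356). The count of transport receptors called higher was 5 of 9 with all libraries. It was 8 without shCtrl replicate 1 and 3 without shCtrl replicate 2, shCtrl replicate 3 or shGDPD5 replicate 2.

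All 4 Ran system genes rose. RANBP1 encodes a protein that helps RANGAP1 to stimulate GTP hydrolysis by Ran, and had 92.9, 96.1 and 96.2 CPM in shCtrl against 193.6, 174.8 and 189.4 in shGDPD5. Its level nearly doubled, with a log2 fold change of 0.97 (standard error 0.05, edgeR adjusted p = 9.9e-09). Its highest log2 fold change over the alternatives was 1.00, without shGDPD5 replicate 2. RAN itself had 456.8, 452.3 and 457.3 CPM against 669.8, 686.4 and 671.4, a log2 fold change of 0.57 (edgeR adjusted p = 9.53e-08), and was the most abundant member per kilobase at 94.4 CPM in shCtrl.

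RCC1, the chromatin-bound exchange factor that loads Ran with GTP, had 89.5, 102.8 and 105.7 CPM in shCtrl against 153.8, 156.2 and 153.6 in shGDPD5 (log2 fold change 0.64, edgeR adjusted p = 1.73e-06). It shares exon bases on its strand with SNHG3, which rose by 0.84, so their reads may be mixed. RANGAP1, the GTPase activating protein, rose by 0.46 (edgeR adjusted p = 0.000125). RAN has 9 annotated pseudogenes, none with more than 7 counts in a library.

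The Y complex forms the outer rings of the scaffold. Of its 9 genes here, 7 rose and SEH1L and AHCTF1 did not pass. NUP85 had 47.9, 47.2 and 49.3 CPM in shCtrl and 83.3, 87.7 and 86.7 in shGDPD5. This was the largest difference of the class, with a log2 fold change of 0.84 (standard error 0.05, edgeR adjusted p = 3.46e-08). NUP107 had 76.9, 61.5 and 65.2 CPM against 117.8, 119.1 and 118.4, with a log2 fold change of 0.80 (edgeR adjusted p = 9.23e-07). Its highest control, shCtrl replicate 1, was still well below the shGDPD5 libraries. NUP37 had 38.5, 33.2 and 35.0 CPM against 51.9, 53.3 and 53.6, a log2 fold change of 0.57 (edgeR adjusted p = 7.09e-06). NUP133, NUP160, NUP43 and SEC13 rose by 0.49, 0.36, 0.47 and 0.54 on the log2 scale. NUP43 overlaps exons of PCMT1 on the other strand, which rose by 0.42. SEC13 also serves in the COPII coat of secretory vesicles.

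SEH1L, which binds NUP85 in the Y complex, had a log2 fold change of -0.01 (edgeR adjusted p = 0.838). AHCTF1 (ELYS), which recruits the Y complex to chromatin when pores assemble after mitosis, had 0.06 (edgeR adjusted p = 0.37), and 0.13 without shCtrl replicate 1 (adjusted p = 0.00523). Neither therefore followed NUP85 and NUP107 in size.

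In the inner ring, which links the outer rings to the central channel, 5 of 5 genes rose. NUP188 had 79.9, 81.6 and 83.6 CPM in shCtrl and 133.0, 130.8 and 133.0 in shGDPD5. No library came near the other group, and the log2 fold change was 0.70 (standard error 0.05, edgeR adjusted p = 7.04e-08). NUP205, its close relative, had 95.7, 86.6 and 88.4 CPM against 123.4, 127.1 and 126.2, with 0.48 (edgeR adjusted p = 5.75e-06). NUP93 had 52.6, 57.3 and 57.9 CPM against 77.0, 78.2 and 76.1, with 0.46 (edgeR adjusted p = 1.18e-05). NUP155 and NUP35 rose by 0.44 and 0.28 on the log2 scale.

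Of the 3 transmembrane nucleoporins, only POM121 passed. It had 62.4, 65.6 and 68.3 CPM in shCtrl and 98.4, 88.7 and 101.6 in shGDPD5, a log2 fold change of 0.56 (edgeR adjusted p = 7.19e-06). POM121 has a nearly identical copy, POM121C, which rose by 0.37, so the division of reads between them is uncertain. NDC1 had 105.5, 94.4 and 92.0 CPM against 106.2, 103.9 and 110.1. The log2 fold change of 0.13 did not pass (edgeR adjusted p = 0.065), although it did without shCtrl replicate 1 (0.19, adjusted p = 0.00127) and with upper quartile scaling (0.15, adjusted p = 0.0414). NUP210 had 107.1, 112.0 and 119.9 CPM against 120.8, 112.2 and 112.8, and the groups overlapped (log2 fold change 0.03, edgeR adjusted p = 0.675).

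The FG repeat genes split in direction. NUP98, which encodes both an FG nucleoporin and the scaffold protein NUP96, had 144.7, 133.4 and 143.5 CPM in shCtrl and 192.0, 186.8 and 189.5 in shGDPD5, with a log2 fold change of 0.43 (edgeR adjusted p = 6.77e-06). NUP153, an FG protein of the nuclear basket, had 95.8, 82.7 and 82.3 CPM against 127.7, 124.6 and 129.6, with 0.55 (edgeR adjusted p = 7.28e-06). Both genes were higher in every shGDPD5 library. NUP214 on the cytoplasmic side, NUP50 of the basket and RANBP2 of the cytoplasmic filaments rose by 0.35, 0.29 and 0.31 on the log2 scale. RANBP2 shares sequence with the RGPD genes, of which RGPD6 had a log2 fold change of -0.63 and RGPD5 one of 0.41 (edgeR adjusted p = 0.00974 and 0.183), so its own value is uncertain.

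NUP62, NUP58 and NUP54 form 1 complex that lines the central channel, and their mRNAs moved in opposite directions. The library values of NUP58 and NUP54 are given because of this, a choice made after the values were seen. NUP62 had 52.9, 64.6 and 62.5 CPM in shCtrl and 83.4, 85.6 and 87.8 in shGDPD5, a log2 fold change of 0.51 (standard error 0.07, edgeR adjusted p = 3.92e-05). NUP58 had 193.5, 170.3 and 172.0 CPM against 133.2, 135.1 and 137.4, a log2 fold change of -0.40 (standard error 0.06, edgeR adjusted p = 4.47e-05). NUP54 had 69.3, 62.3 and 60.4 CPM against 43.8, 51.5 and 45.8, a log2 fold change of -0.44 (standard error 0.07, edgeR adjusted p = 0.000191).

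The groups did not overlap for any of these 3 genes. Per kilobase, NUP62 made up 19.8%, 25.3% and 24.8% of the summed level of the 3 genes in shCtrl and 37.0%, 35.7% and 37.4% in shGDPD5. The log2 ratio of NUP62 to NUP58 was -0.79 ± 0.257 in shCtrl and 0.13 ± 0.0146 in shGDPD5 (SD, n = 3 each). The shCtrl values were -1.08, -0.61 and -0.67, with replicate 1 the lowest. Without shCtrl replicate 1, the log2 fold changes of NUP62, NUP58 and NUP54 were 0.43, -0.34 and -0.39. NUP62 overlaps exons of ATF5 on the other strand, which fell by 0.40 on the log2 scale. It also overlaps exons of IL4I1, which had at most 3 counts, and of AC011452.1 on its own strand. The level of AC011452.1 is not given here. NUP58 and NUP54 overlap no other gene by 100 or more exon bases in GENCODE release 29.

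On the cytoplasmic face of the pore, NUP88 was lower while its partner NUP214 was higher. NUP88 had 115.7, 108.6 and 111.4 CPM in shCtrl and 74.6, 81.6 and 74.1 in shGDPD5. This was the largest decrease among the members, with a log2 fold change of -0.54 (standard error 0.05, edgeR adjusted p = 2.85e-06). The log2 ratio of NUP214 to NUP88 per kilobase was -3.29 ± 0.0846 in shCtrl and -2.39 ± 0.157 in shGDPD5 (SD, n = 3 each). NUP88 overlaps exons of RABEP1 and RPAIN on the other strand, and these had log2 fold changes of -0.26 and -0.32.

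AAAS, the nucleoporin aladin, had 24.5, 28.6 and 26.8 CPM in shCtrl and 45.6, 47.1 and 44.5 in shGDPD5, a log2 fold change of 0.78 (edgeR adjusted p = 7.38e-07). TPR, the filament protein of the nuclear basket, had 302.1, 263.0 and 254.6 CPM against 278.3, 280.3 and 277.9. The shGDPD5 libraries lay within the range of the controls, and the log2 fold change of 0.03 did not pass (edgeR adjusted p = 0.688). Without shCtrl replicate 1 it was 0.10 (adjusted p = 0.0069).

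**Figure D4:**
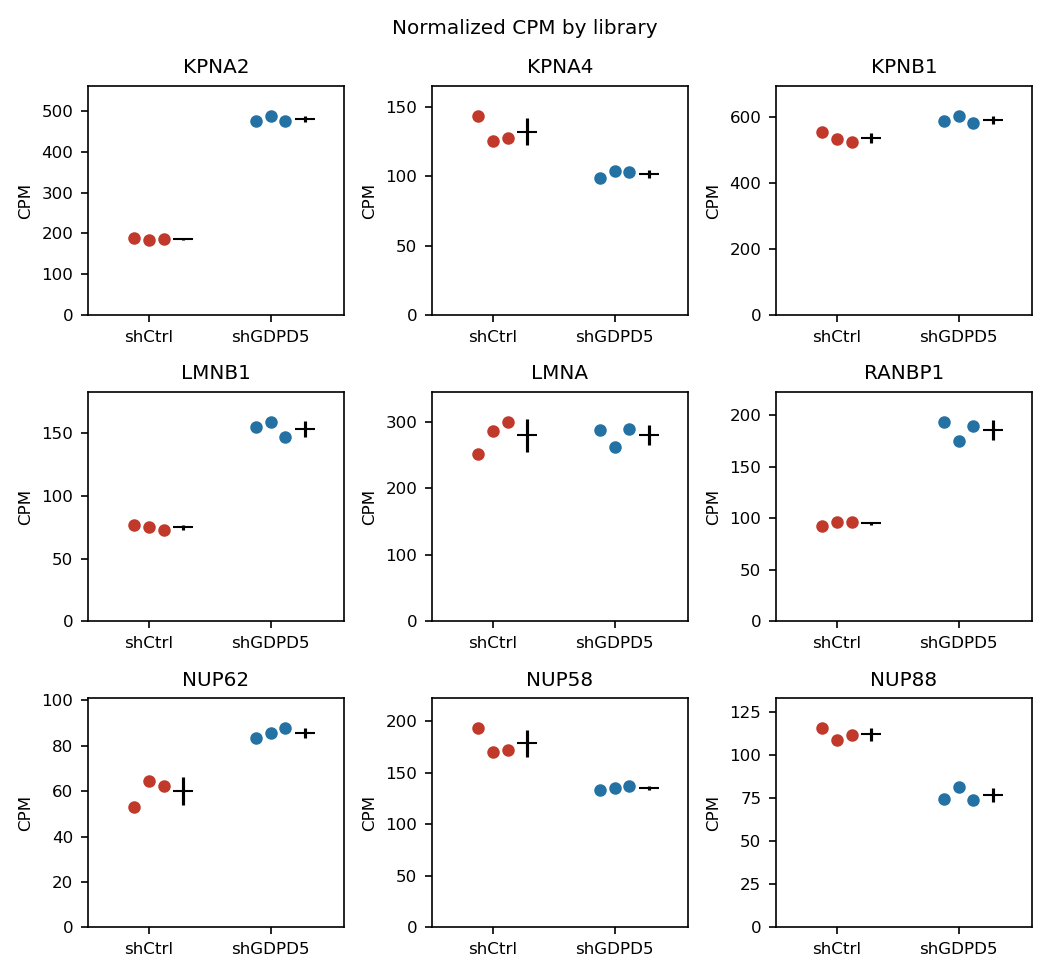
CPM of 9 members by group (y axes from 0), with shCtrl in red and shGDPD5 in blue. Each point is 1 of the 3 libraries of a group, and black marks give the mean with its SD. KPNA2, LMNB1, RANBP1 and NUP62 lie higher in every shGDPD5 library, KPNA4, NUP58 and NUP88 lie lower, and LMNA overlaps.

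In the lamina, the B-type lamins rose and the A-type lamin gene did not pass. LMNB1, lamin B1, lies on chromosome 5 from 126776623 to 126837020 on the plus strand (GENCODE release 29, GRCh38). It had 76.7, 74.7 and 73.0 CPM in shCtrl and 154.7, 158.6 and 146.4 in shGDPD5. Each shGDPD5 library held about double the level of any control, with a log2 fold change of 1.03 (standard error 0.05, edgeR adjusted p = 4.52e-09), and the lowest value over the alternatives was 1.00. LMNB2, lamin B2, had 179.6, 211.6 and 210.7 CPM against 312.5, 274.1 and 313.0, a log2 fold change of 0.58 (edgeR adjusted p = 1.48e-05). LMNB2 shares exon bases on its strand with TIMM13, which rose by 0.67.

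LMNA, which encodes lamins A and C, had 252.2, 286.2 and 299.6 CPM in shCtrl and 287.2, 261.9 and 289.1 in shGDPD5. The groups overlapped, and the log2 fold change was 0.00 (standard error 0.06, edgeR adjusted p = 0.999). Per kilobase, LMNA made up 40.0%, 40.8% and 42.1% of the summed level of the 3 lamin genes in shCtrl and 29.1%, 28.5% and 29.7% in shGDPD5, while LMNB1 went from 21.2% ± 1.93 to 30.8% ± 2.19 (SD, n = 3 each). The log2 ratio of LMNB1 to LMNA was -0.95 ± 0.164 in shCtrl and 0.08 ± 0.131 in shGDPD5 (SD, n = 3 each). The library values of LMNA were chosen for display after the values were seen.

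Of the membrane proteins at the lamina, TMPO, which encodes the lamina-associated polypeptides LAP2, had 188.2, 168.7 and 167.7 CPM in shCtrl and 304.8, 303.6 and 303.6 in shGDPD5. The shGDPD5 libraries were nearly equal and far above the controls, with a log2 fold change of 0.80 (standard error 0.05, edgeR adjusted p = 5.11e-08). TMPO-AS1, which overlaps it on the other strand, rose by 1.79 but had at most 61 counts in a library. LBR, the lamin B receptor and a sterol reductase, rose by 0.29 (edgeR adjusted p = 0.00058). EMD, emerin, had a log2 fold change of 0.00 (edgeR adjusted p = 0.99), and its groups overlapped.

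Promoter sequence was set beside these values because most members moved together. Promoters of RefSeq (GRCh38.p14) were matched by symbol for 42 of the 47 members and for 11291 tested genes. The 250 bases before the RefSeq start were searched on both strands, with 1 window for each member. This start can differ from the gene start in GENCODE. The NUP35 promoter, counted below with a CHR, begins at 183124193, inside a gene that begins at 183117513. The RANGAP1 promoter begins at 41302320, outside a gene that reaches 41286251. The counts hold for these windows only. The CHR, an element known from genes of the late cell cycle, was searched as TTTGAA and TTCGAA. It was present in 8 of the 30 higher members with a promoter (26.7%) and in 1 of the 12 other members, against 9.45% of all promoters and 11% of those of the higher genes. The CCAAT box was present in 36.7% of the higher members' promoters and in 6 of those of the 12 other members, against 35.2% of all and 39.7% of the higher genes. An E2F motif, searched as TTTCCCGC, TTTGGCGC, TTTCGCGC and TTTGCCGC, was found in 1 member, LMNA, and in 4.46% of all promoters. The E-box CACGTG was found in 9.52% of the members' promoters and 8.71% of all, and the NRF1 motif in 14.3% and 10.3%. TTCGAA and the E-box read the same on both strands, and the E2F and NRF1 motifs can share bases. A match of letters shows no binding.

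The promoters shown are those of KPNA2, which rose most, of its exporter CSE1L, of LMNB1, and of NUP88, which fell most, each read along its own strand with the matched letters in capitals. Of the members with a promoter that rose more than CSE1L, only KPNA2 had a CHR. LMNB1, NUP85, NUP107, TMPO, AAAS, NUP188 and RCC1 had none. The KPNA2 window is chr17:68035485-68035734 on the plus strand, with TTCAAA (the CHR read on the other strand) starting 99 bases and CCAAT starting 89 and 58 bases before the start. The CSE1L window is chr20:49046062-49046311 on the plus strand, with ATTGG (the CCAAT box read on the other strand) at 93 and TTCGAA at 85 bases. The LMNB1 window is chr5:126776373-126776622 on the plus strand and held none of the searched letters. The NUP88 window is chr17:5419663-5419912 on the minus strand, with ATTGG at 178, 77 and 46 bases and no CHR. In GENCODE the KPNA2 gene begins at 68035519, the CSE1L gene at 49046246 and the NUP88 gene, on the minus strand, at 5420160. Most of the KPNA2 window, the end of the CSE1L window and the whole NUP88 window thus lie inside these genes.
KPNA2: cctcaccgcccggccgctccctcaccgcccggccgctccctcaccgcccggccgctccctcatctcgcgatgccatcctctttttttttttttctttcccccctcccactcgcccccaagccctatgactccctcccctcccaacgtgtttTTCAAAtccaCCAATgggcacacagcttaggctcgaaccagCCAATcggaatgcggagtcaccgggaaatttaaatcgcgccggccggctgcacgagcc
CSE1L: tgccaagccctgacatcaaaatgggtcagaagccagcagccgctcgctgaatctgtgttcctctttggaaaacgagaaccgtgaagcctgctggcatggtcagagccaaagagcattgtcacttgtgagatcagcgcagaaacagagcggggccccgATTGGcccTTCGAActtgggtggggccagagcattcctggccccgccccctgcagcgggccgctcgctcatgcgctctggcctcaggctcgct
LMNB1: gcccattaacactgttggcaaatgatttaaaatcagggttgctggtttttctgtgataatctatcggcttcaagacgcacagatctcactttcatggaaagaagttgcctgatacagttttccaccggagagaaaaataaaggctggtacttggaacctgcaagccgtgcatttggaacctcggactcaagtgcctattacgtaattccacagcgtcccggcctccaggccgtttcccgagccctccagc
NUP88: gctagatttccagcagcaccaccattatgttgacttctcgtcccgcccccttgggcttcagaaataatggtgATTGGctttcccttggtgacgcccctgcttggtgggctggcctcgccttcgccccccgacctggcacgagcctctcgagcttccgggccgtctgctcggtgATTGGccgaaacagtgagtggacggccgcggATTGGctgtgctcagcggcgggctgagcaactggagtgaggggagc

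Other genes of nuclear transport and the nuclear envelope moved less uniformly. Of 60 such genes, 59 were tested, of which 30 were higher (50.8%) and 13 lower (22.0%), against 29.7% and 30.1% of all tested genes, with a median log2 fold change of 0.18. The smaller lists are to be read against the same shares. KPNA7 was not tested, with at most 2 counts in a library. Of 14 further nucleoporins and factors of mRNA export or SUMO conjugation at the pore, 7 were higher and 2 lower. NUTF2, which imports Ran, NXF1, the main mRNA exporter, and RAE1 and GLE1, which act in mRNA export, rose by 0.74, 0.72, 0.47 and 0.45 on the log2 scale.

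Of 19 tested further karyopherins and cofactors, 10 were higher and 3 lower. The largest difference was the decrease of XPOT, the exportin for tRNA, from 500.9, 454.0 and 452.1 CPM in shCtrl to 251.8, 257.7 and 250.8 in shGDPD5, a log2 fold change of -0.89 (standard error 0.05, edgeR adjusted p = 1.38e-08). The shGDPD5 level was 54.0% of the control level, in contrast to CSE1L and XPO1, which rose. The importins IPO9, IPO4 and IPO7 rose by 0.63, 0.60 and 0.49 on the log2 scale. IPO4 shares exon bases with another annotated gene on its strand.

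Of 22 further genes of the nuclear envelope and of lamin processing, 12 were higher and 5 lower. The nesprin genes, whose proteins join the nucleus to the cytoskeleton, did not move together. SYNE3 and SYNE1 fell by 2.03 and 1.25 on the log2 scale (edgeR adjusted p = 2.08e-08 and 1.24e-06), and SYNE2 rose by 0.93 (edgeR adjusted p = 5.78e-08). NRM, nurim, rose by 1.21 from only 36 or more counts in a library (edgeR adjusted p = 3.22e-05). The SEC61 channel, which the study's discussion also names in the route of EGFR, had 3 lower genes and 1 higher of 4 at the mRNA level. SEC61B, SEC61G and SEC61A1 fell by 0.96, 0.68 and 0.45 on the log2 scale, while SEC61A2, the least abundant of them, rose by 0.72 and overlaps NUDT5 on the other strand.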

How the data were processed

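Counts per gene of 6 HCT116 libraries were used. The authors deposited estimated counts, of which 14.5% were not whole, with no scaling between libraries. For these counts the aligner, counting tool, build and use of strand were not given in the sources used here, so overlapping genes on opposite strands cannot be told apart. Columns and groups were assigned from the sample labels.

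The estimated counts were rounded (by at most 0.5). Genes were filtered with the default of edgeR (minimum count 10), leaving 16755 genes, scaled by TMM and tested in edgeR 4.0.16 (R 4.3.3) by quasi-likelihood with the group as the sole term. P-values were adjusted over these genes by the Benjamini-Hochberg method. Totals of 16715447 to 18510670 counts gave standard errors of 0.039 to 0.078 (log2) for the members. A per-kilobase value divides CPM by the exon length in GENCODE release 29.

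The members, classes and lists were chosen with earlier results of these data known. Library values are given for members with a called log2 difference of 1 or more in size, for up to 3 members of each class with the smallest adjusted p, for KPNB1, and, chosen after their values were seen, for NUP54, NUP58, LMNA and XPOT. Of other lists, the 4 genes with the largest passing differences are named, and KPNA5 as a further importin alpha gene. Alternatives were other scalings and filters, DESeq2 1.42.0, limma-voom 3.58.1, the study's kind of per-gene test on log2(CPM + 1), a replicate block, and leaving out each library. The fits were also run on simulated counts in which few genes differed. Such a run does not test scaling or error rates where 59.7% of genes are called.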

Additional observations from a re-analysis of the deposited data

How the results depend on the processing

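Over 14 alternatives, the count of members called higher stayed between 31 and 39 and the count called lower at 4, with 31 higher without a filter on low counts and 39 without shCtrl replicate 1. No called member reversed, and only KPNA1 and KPNB1 of the 37 called members lost the call under any alternative, among 658 pairs of a member and an alternative. The transport receptors called higher, 5 with all libraries, numbered 3 without a filter on low counts and 3 to 8 when single libraries were left out. Members past the study's thresholds numbered 2 at a log2 difference of 1, and 3 without shGDPD5 replicate 2. They numbered 9 with a fold over 1.5 or under 0.5, an alternative chosen after seeing the data. The members that reversed had not passed the test. SEH1L was 0.0021 with upper quartile factors and -0.053 to 0.016 with single libraries left out. LMNA was -0.0039 with RLE factors, -0.015 with no filter and -0.0039 with DESeq2, and -0.073 to 0.048 with single libraries left out. EMD was -0.0028, -0.014 and -0.0026 in the same order, and -0.088 to 0.041. NUP210 (-0.012 to 0.068), TPR (-0.024 to 0.10) and TNPO1 (-0.0013 to 0.11) reversed only when libraries were left out. All are log2 fold changes, and the cause was not tested.

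The labels do not say whether equally numbered libraries were paired. Their deviations from the group means correlated by -0.103, -0.04 and 0.0008, and 0 of 3 control libraries correlated best with their own number. With 3 libraries in a group, these values cannot decide whether there was a pairing. With a replicate block, 33 members were higher and 4 lower, and over all genes 4792 were higher and 4853 lower, against 4971 and 5035.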
